A study of Mus musculus with 2 samples.

Results

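Fgf21 and other fasting-responsive hormones of the liver, together with receptors that liver uses for such hormones, were examined in L-Lpcat3 KO and control livers. The group was 9 genes of the 18193 named genes on the array, namely Fgf21, Klb, Fgfr4, Angptl4, Igfbp1, Igfbp2, Gdf15, Inhbe and Lepr. They were listed by name and chosen from these same arrays with earlier values known, the ratio of Fgf21 among them, so their ratios are given as a description and support nothing. Affymetrix whole-genome mouse expression arrays were hybridized with liver RNA of male mice aged 12 weeks, fed chow and fasted for 6 hr. The control, Flox/Flox, was Lpcat3fl/fl, that is, homozygous for a floxed Lpcat3 allele without Cre. The L-Lpcat3 KO was Lpcat3fl/fl Albumin-Cre, carrying the same alleles and a Cre transgene under the albumin promoter, which is active in hepatocytes and leaves the gene in other liver cells. Effects of the deletion and of the transgene itself cannot be told apart with these controls. Each genotype was 1 array of a pool of 5 mice, so no replicate, error, test or p-value exists for any ratio, and the values compare these pools only.

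During a fast, the liver secretes hormones that redirect fuel use in other organs. FGF21 is made by hepatocytes under the control of the fatty acid receptor PPARα and of ATF4, the transcription factor of the integrated stress response. It signals through an FGF receptor paired with the co-receptor β-klotho, encoded by Klb. FGFR4 is the main FGF receptor of hepatocytes, and with β-klotho it receives FGF15 from the gut to restrain bile acid synthesis. ANGPTL4 inhibits lipoprotein lipase, IGFBP1 and IGFBP2 bind insulin-like growth factors, and Inhbe encodes the subunit of activin E. GDF15 is a stress hormone sensed in the hindbrain, and Lepr encodes the leptin receptor, which exists in several spliced forms.

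Promoter sequence is shown for 3 of the genes because Fgf21, Inhbe and Igfbp1 are textbook responders to PPARα, ATF4 or insulin through FoxO. Each line holds the 250 bases before the RefSeq transcription start in GRCm38.p6, written 5′ to 3′ on the strand of the gene. The intervals are chr7:45615491-45615740 on the minus strand for Fgf21, chr10:127351849-127352098 on the minus strand for Inhbe, and chr11:7197537-7197786 on the plus strand for Igfbp1. Capitals mark the matches described after them.
Fgf21: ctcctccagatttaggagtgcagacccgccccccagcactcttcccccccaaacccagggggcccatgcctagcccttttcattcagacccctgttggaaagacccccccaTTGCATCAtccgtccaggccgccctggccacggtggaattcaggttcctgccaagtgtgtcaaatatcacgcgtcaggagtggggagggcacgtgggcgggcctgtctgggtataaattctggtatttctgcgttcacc
Inhbe: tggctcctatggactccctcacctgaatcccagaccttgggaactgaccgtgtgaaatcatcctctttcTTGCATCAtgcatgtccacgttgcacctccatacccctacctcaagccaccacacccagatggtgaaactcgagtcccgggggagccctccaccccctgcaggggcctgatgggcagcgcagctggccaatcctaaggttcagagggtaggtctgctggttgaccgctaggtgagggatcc
Igfbp1: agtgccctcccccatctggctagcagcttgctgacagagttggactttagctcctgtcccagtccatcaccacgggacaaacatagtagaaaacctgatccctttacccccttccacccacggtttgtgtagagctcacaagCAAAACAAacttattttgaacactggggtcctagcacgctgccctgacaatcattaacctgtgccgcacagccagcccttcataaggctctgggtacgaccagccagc

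The table held 11 windows for 8 of the 9 genes, and 4 motifs were searched in them on both strands. The C/EBP-ATF element was TGATGNAA, the FoxO motif GTAAACA, the insulin response element CAAAACAA, and the PPAR-RXR element a direct repeat of AGGNCA with 1 base between the copies. The Fgf21 and Inhbe windows each held 1 match to the C/EBP-ATF element, both reading TGATGCAA on the opposite strand, from 139 to 132 bases before the start in Fgf21 and from 181 to 174 in Inhbe. Of 32851 promoter windows of this length, 3.45% held that motif. The Igfbp1 window held CAAAACAA, from 108 to 101 bases before the start, a motif present in 2.21% of windows. One of both Lepr windows held it as well, from 114 to 107 bases before its start. None of the 3 genes shown had the string GTAAACA (3.17% of windows) or the PPAR-RXR repeat (0.338% of windows) in its stretch. The absence of that 1 string does not mean that a stretch lacks a site for FoxO, the insulin response element of Igfbp1 included. The only match to the PPAR-RXR repeat was in 1 of the windows of Gdf15, from 55 to 43 bases before its start, and Gdf15 has no signal here. Neither the windows of Klb and Fgfr4 nor the pair for Igfbp2 held any of the 4 motifs. A match is a string of letters and says nothing of binding in these livers, and other positions were not searched.

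The platform annotation used here placed 17 probe sets on 8 of the 9 genes. Gdf15 was matched to no probe set by symbol or Entrez ID and was not analysed here. Signals are MAS5 values on a linear scale, scaled by the authors so that both arrays had the same trimmed mean. Ratios are L-Lpcat3 KO over Flox/Flox. The median of all probe sets on both arrays, a signal of 76.4, served as a floor below which a signal was treated as not told from background. As a gauge, 61 probe sets of 30 genes of other tissues were read at a median of 13.4, with 15.6% of these signals over the floor. Of the 17 probe sets, 12 lay above the floor in both pools, 1 (Fgf21) in the L-Lpcat3 KO alone and 4 in neither, which left 13 measured. Lpcat3 itself was 3310 in the Flox/Flox pool and 1305 in the L-Lpcat3 KO pool.

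**Figure D1:**
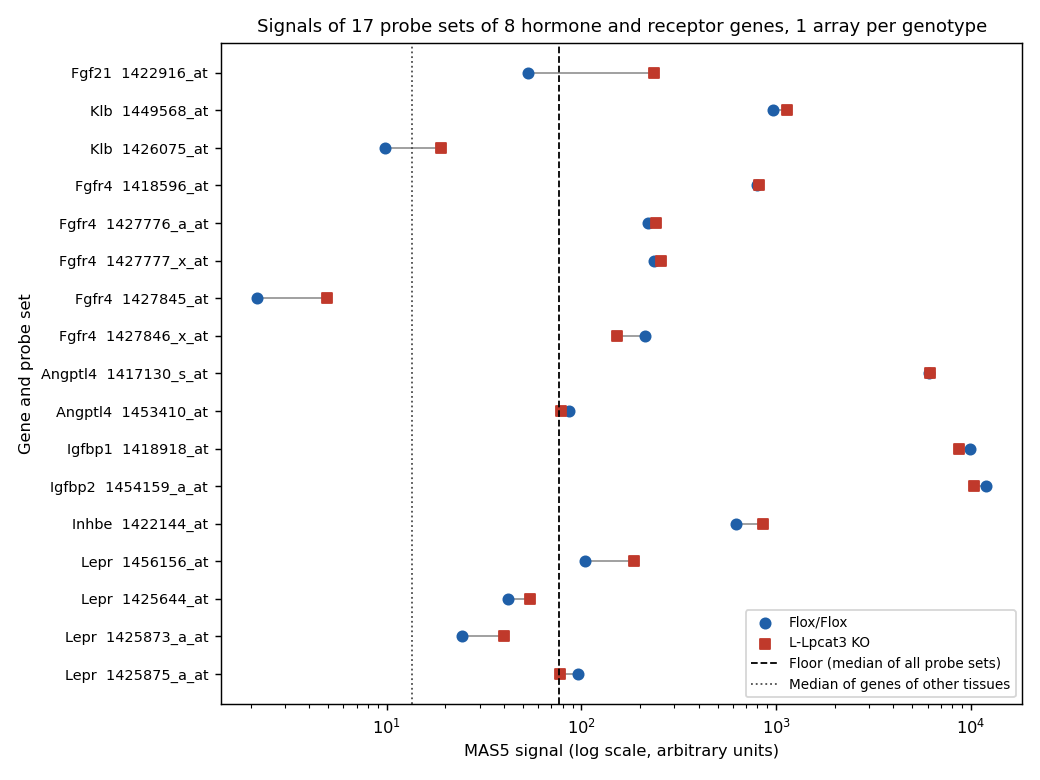
MAS5 signal (x axis, log scale) of the 17 probe sets (y axis) in the Flox/Flox pool (blue circles) and the L-Lpcat3 KO pool (red squares), 1 array each; the dashed line is the floor of 76.4 and the dotted line the median of genes of other tissues, 13.4. Fgf21 spans the widest interval of the measured probe sets, from 53.2 to 236 across the floor, while both symbols nearly coincide for Angptl4 in its brighter probe set (6103 and 6158).

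Fgf21 was the gene of this group with the highest ratio. Its single probe set read 53.2 in the Flox/Flox pool and 236 in the L-Lpcat3 KO pool. The control pool thus lay below the floor and the knockout pool above it, so the ratio is a bound, at least 3.09-fold higher (log2 ratio at least 1.63). Genes of other tissues gave 122 signals, from 61 probe sets read on both arrays. Of these, 26 (21.3%) were as high as the Flox/Flox value and 6 (4.92%) as high as the L-Lpcat3 KO value. Those 6 came from single probe sets of Gnat1, Prm1 and Syt1, bright on both arrays (368 to 984). Of 1425 probe sets at the floor in Flox/Flox alone, 7 (0.491%) were at least 3-fold higher in L-Lpcat3 KO, and Fgf21 ranked 6th. Such probe sets can only be higher in L-Lpcat3 KO, and Fgf21 was chosen with its ratio known, so nothing is read from this rank. A control signal this near background leaves the size of the difference dependent on the floor, with log2 ratios from 1.43 to 2.15 over the floors tried, up to the 90th percentile of genes of other tissues.

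Of the 13 measured probe sets, 2 were at least 1.5-fold higher in L-Lpcat3 KO (1 each of Fgf21 and Lepr) and none was 1.5-fold lower, where 4.40% and 3.62% of all 20650 measured probe sets were. Only Fgf21 passed 2-fold, as 0.644% of all did. Counted by the brightest probe set of each gene, 2 of 8 genes were at least 1.5-fold higher, none was lower by that size and 1 was 2-fold higher, against 4.05%, 3.17% and 0.571% of 12077 measured genes. Ratios of 6 of the 8 genes lay above 0, as did 50.8% of all genes. The median log2 ratio was 0.14 over the 8 genes and 0.05 over the 13 probe sets, beside 0.00 over all measured genes. Because the genes were chosen with Fgf21 in view, nothing is read from these shares.

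**Figure D2:**
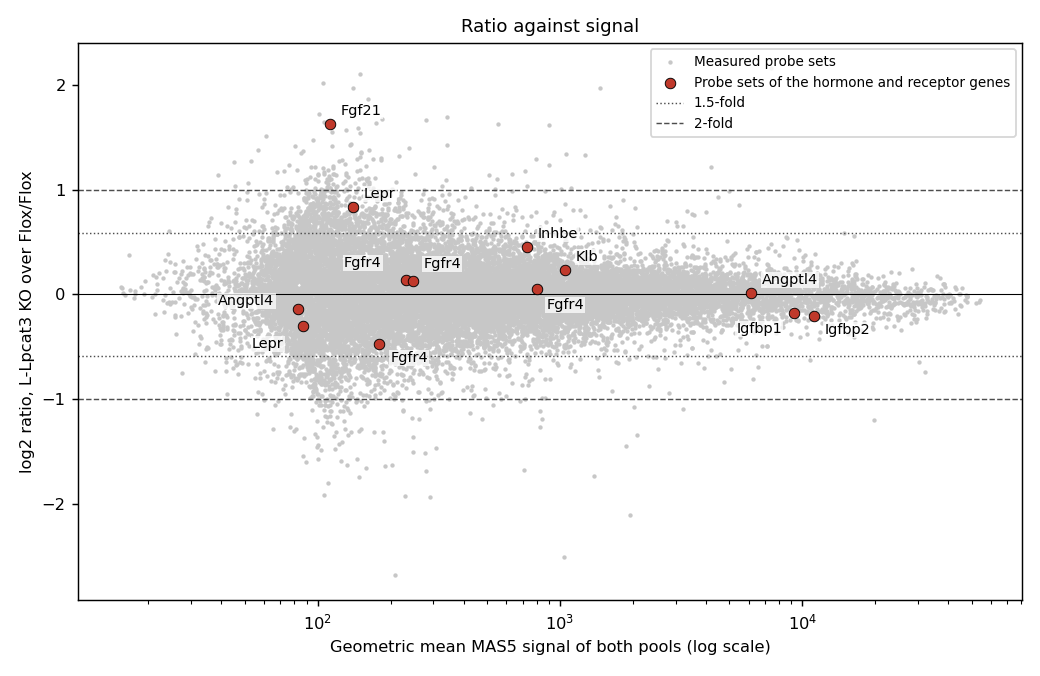
Log2 ratio between the pools, L-Lpcat3 KO minus Flox/Flox, with signals below the floor raised to it (y axis), against the geometric mean of the deposited signals (x axis, log scale) for 20650 measured probe sets (grey) and the 13 measured probe sets of the hormone and receptor genes (red); dotted and dashed lines mark 1.5-fold and 2-fold. Fgf21 (log2 ratio 1.63) lies above the cloud, Lepr has 1 point at 0.83 and another at -0.30, and Igfbp1, Igfbp2 and the brighter probe set of Angptl4 lie at the bright end between -0.21 and 0.01.

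The receptor side of the FGF axis differed less. The brighter Klb probe set was 965 in the Flox/Flox pool and 1136 in the L-Lpcat3 KO pool, 1.18-fold higher (log2 ratio 0.23). Its other probe set stayed under the floor (9.84 and 19.1) and gives no ratio. Fgfr4 was 793 and 819 by its brightest probe set, 1.03-fold higher (log2 ratio 0.05). A pair of probe sets made against the same Fgfr4 transcript record gave 219 against 242 and 235 against 258, with log2 ratios of 0.14 and 0.13. Against these, 1 other probe set was lower, 211 in the Flox/Flox pool and 152 in the L-Lpcat3 KO pool (log2 ratio -0.47), and the last was near the bottom of the scale (2.17 and 4.94). The lower one and 1 of the pair carry the suffix _x_at, which the array's maker gives to probe sets that may also bind other transcripts. Fgfr4 thus had probe sets on both sides of 0, and its brightest one moved to -0.03 with median centring. Among probe sets of like signal (geometric mean over the 75th percentile of all signals, 387), 2.04% of 10205 were 1.5-fold apart in either direction, and the Klb and Fgfr4 values lay inside that size.

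Other FGF receptors and related genes were listed for comparison. Of 5 measured, 4 had ratios below 0, and the list median was -0.13. Among all measured genes, 50.8% had ratios above 0 and 3.17% were at least 1.5-fold lower. Fgfr1, the receptor form through which FGF21 acts in fat, was 394 in the Flox/Flox pool and 237 in the L-Lpcat3 KO pool, 1.66-fold lower, although its other measured probe set had a log2 ratio of -0.02. Fgfrl1, a receptor-like protein without a kinase, was the brightest and highest, with 1817 and 1969 (log2 ratio 0.12). The co-receptor Kl was below the floor in both pools, as were the endocrine ligands Fgf15 (3.51 and 9.99) and Fgf23 (11.8 and 53.5).

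Of 10 regulators of Fgf21, none was 1.5-fold apart by its brightest probe set, and 5 had ratios above 0 (50.8% of all measured genes). The median was 0.03 as deposited and -0.05 with median centring. Ppara was 4958 in the Flox/Flox pool and 5229 in the L-Lpcat3 KO pool (log2 ratio 0.08). Creb3l3, which encodes the liver-enriched factor CREBH, a partner of PPARα at the Fgf21 gene, was 8243 and 8927 (0.11). Rora, a nuclear receptor of the clock, was the highest at 1506 and 1964 (0.38). Of its 6 other measured probe sets, 1 was below 0, at -0.04 with the knockout pool at the floor, and the highest was at 0.70. Mlxipl, the glucose-sensing factor ChREBP, was the lowest at 6543 and 5918 (-0.15). Atf4 was 3416 and 3382 (-0.01) by its brightest probe set and 1844 and 1318 (-0.48) by another.

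PPARα targets that respond to fasting, a list that does not include Fgf21 or Angptl4, had ratios above 0 in all 13 measured genes, with a median of 0.15. With the other scalings the count above 0 was again 13, while it was 11 with the mean over probe sets. Of the 13, 5 were at least 1.5-fold higher (4 with median centring) and none lower by that size. Among all 12077 measured genes, 4.05% were higher and 3.17% lower by that size, and 50.8% had ratios above 0. Cyp4a14, a fatty acid hydroxylase, went from 3507 to 15684 (4.47-fold higher), Cd36 from 589 to 1387 (2.35-fold) and Vnn1, a pantetheinase, from 3252 to 6197 (1.91-fold). Acot2 and Acot1, acyl-CoA thioesterases, were 1.61-fold and 1.57-fold higher. The brightest of the list, Acadm, differed little (16803 and 18601, log2 ratio 0.15), and the lowest ratio was that of the lipid droplet protein Plin2 (0.09). The study pointed to PPARα targets on these arrays, so this list is no independent evidence of its direction. Fgf21 was higher along with these genes, whereas Angptl4, a PPARα target as well, was not. A part of PPARα in the Fgf21 ratio was not tested.

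Angptl4 was 6103 in the Flox/Flox pool and 6158 in the L-Lpcat3 KO pool by its brighter probe set, 1.01-fold apart (log2 ratio 0.01). Its other probe set, just above the floor, was 86.7 and 78.8 (log2 ratio -0.14). The ratio of the brighter one was -0.07 with median centring. Other angiopoietin-like genes were higher in all 4 measured cases with a median of 0.21, and none reached 1.5-fold. Of all measured genes, 50.8% had ratios above 0. Angptl8, which takes part in inhibiting lipoprotein lipase, was 304 and 358 (log2 ratio 0.23), Angptl6 was 639 and 728 (0.19), and Angptl1 was 93.9 and 126 (0.42). Angptl7 was barely above the floor in the knockout pool alone (63.0 and 79.8). In the list of lipoprotein lipase and its cofactors, 3 of 6 genes had ratios above 0. Lpl, the enzyme that ANGPTL4 inhibits, was 1167 and 1540 (0.40), with its other probe set at -0.23. Apoc3 was 36534 and 36205 (-0.01), and Apoa5, the lowest, was 33643 and 32284 (-0.06).

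The insulin-suppressed binding proteins were slightly lower in L-Lpcat3 KO. Igfbp1 was 9841 in the Flox/Flox pool and 8695 in the L-Lpcat3 KO pool, 1.13-fold lower (log2 ratio -0.18), and Igfbp2 was 11955 and 10368, 1.15-fold lower (-0.21). Both ratios were below 0 under every scaling and floor tried, between -0.28 and -0.16. In the wide class of 10205 probe sets over the 75th percentile of signal, the median size was 0.12 and 90% differed by less than 0.35. Igfbp1 and Igfbp2 lay above that median and inside the 90% bound. Both read in the bright part of the class, at signal percentiles from 97.8 to 98.4. Dimmer probe sets weigh on the bound of 0.35, so it does not settle how unusual these ratios are. Neither went with Fgf21, and each has 1 probe set, so no second reading exists.

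Other members of the IGF system did not move as one. Of 10 measured genes, 7 had ratios above 0 (50.8% of all genes) and 1 was at least 1.5-fold higher (4.05% of all genes). That gene, Igfbp6, was 141 and 212 (log2 ratio 0.59) and fell short of 1.5-fold under each other scaling. Igfbp5 was 486 and 650 (0.42). Igfbp7 was 3844 and 4781 (0.31), although both its dimmer probe sets were lower (-0.52 and -0.35). Igfbp4, the brightest, was 28510 and 29202 (0.03), with 4 of its 5 other probe sets below 0. Igfbp3, the main carrier of IGF1 in plasma, was 442 and 361 (-0.29), with its other probe set at 0.14. Igf1 was 17901 and 18379 (0.04), but its 3 other probe sets were below 0, from -0.29 to -0.02. Igfals, the acid-labile subunit of the same plasma complex, was 2133 and 1850 (-0.21). The list median was 0.07 as deposited and -0.03 with the lowest of the other scalings.

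Targets of insulin and FoxO, the pathway that also controls Igfbp1, were mostly within 1.5-fold. Of 9 measured, 7 had ratios above 0 (50.8% of all measured genes), and the median was 0.13. Irs2, an insulin receptor substrate, was 164 in the Flox/Flox pool and 104 in the L-Lpcat3 KO pool, 1.58-fold lower. By the brightest probe set, it was the only one past 1.5-fold, where 3.17% of all 12077 measured genes were lower by that size. The insulin receptor Insr was 3765 and 4131 (log2 ratio 0.13) by its brightest probe set. A dimmer Insr probe set was 181 and 83.9, 2.16-fold lower. Trib1, a pseudokinase, was the highest at 295 and 388 (log2 ratio 0.40). Pck1, the gluconeogenic enzyme PEPCK, was 31084 and 29118 (-0.09), and its other probe sets had ratios above 0. G6pc, glucose-6-phosphatase, was 9217 and 10342 (0.17).

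Inhbe was 624 in the Flox/Flox pool and 853 in the L-Lpcat3 KO pool, 1.37-fold higher (log2 ratio 0.45). It has 1 probe set, well above the floor in both pools, and its log2 ratio lay between 0.37 and 0.45 over the alternatives. Over the 75th percentile of signal, a wide class of 10205 probe sets, 90% differed by less than 0.35 in either direction. From the floor to that percentile, the same bound was 0.68 for 8910 probe sets. Inhbe lay in the dimmer part of the wide class, at signal percentiles of 80.7 (control pool) and 84.1 (knockout pool). Brighter probe sets weigh on the bound of 0.35, so it does not settle how unusual the Inhbe ratio is. Other activin subunits gave mixed values. Inhbc, also enriched in liver, was 1911 and 2045 (0.10), and Inhba 110 and 133 (0.28). Inhbb was 135 and 145 (0.10) by its brighter probe set but 151 and 81.0 by the other (-0.90). By the brightest probe set, none of the 12 measured activin and receptor genes was 1.5-fold apart, the median was -0.01, and the lowest was the receptor Acvr2b at 316 and 228 (-0.47), with another probe set at 0.15.

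Fgf21 and Inhbe are both known targets of ATF4, so other ATF4 targets were set beside them. Of 10 measured, 6 had ratios above 0 and 4 below, where 50.8% of all measured genes lay above 0. The median was 0.04 as deposited and -0.04 with median centring. By the brightest probe set, 1 was at least 1.5-fold higher and 1 lower, beside 4.05% and 3.17% of all measured genes. Asns, asparagine synthetase, was lower, 1241 in the Flox/Flox pool and 777 in the L-Lpcat3 KO pool (1.60-fold), and a second Asns probe set was lower too (log2 ratio -0.51). Chac1 was lower as well (832 and 672, log2 ratio -0.31), and Atf5 was higher (3918 and 4823, 0.30). Probe sets of Trib3 disagreed, with 321 and 275 (-0.22) by the brighter and 226 and 261 (0.21) by the other. Those of Sesn2 did too, with 277 and 374 (0.43) against 129 and 46.1, the latter with the knockout pool at the floor (-0.76). Atf3 was 1.54-fold higher at signals near the floor (77.7 and 120), and Cth, the brightest, was 15751 and 16285 (0.05). The ATF4 targets thus lay on both sides of 0, with a share above 0 near that of all measured genes. Fgf21 and Inhbe were on the high side. A part of ATF4 in either ratio was not tested.

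Lepr gave opposing readings. By its brightest probe set it was 105 in the Flox/Flox pool and 187 in the L-Lpcat3 KO pool, 1.78-fold higher (log2 ratio 0.83). A second measured probe set was 96.2 and 78.0, 1.23-fold lower (-0.30). The remaining pair did not reach the floor, 41.9 and 54.6 in 1 case and 24.5 and 40.1 in the other. These signals are low, at most 187 beside a floor of 76.4. Of 122 signals of genes of other tissues, 9 were as high as 105 and 6 as high as 187. Those 6 came from single probe sets of Gnat1, Prm1 and Syt1, bright on both arrays (368 to 984). The next, Krt5, read 146 and 144. In this range of signal, between the floor and the 75th percentile, 8.31% of 8910 probe sets were at least 1.5-fold higher and 14.9% were 1.5-fold apart in either direction. Among 111 genes whose brightest probe set lay in this range and was at least 1.5-fold higher, and which had another measured probe set, 58 (52.3%) had one with a ratio below 0, as Lepr did. With the mean over probe sets, its log2 ratio was 0.13. Which spliced form each probe set reads was not determined here.

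A list of genes around the leptin receptor held both its signalling proteins and the related Leprot and Leprotl1. Of 7 measured, 5 had ratios below 0 and 2 above, where 50.8% of all measured genes lay above 0. None was 1.5-fold apart as deposited (Stat3 was with median centring), and the median was -0.15. Stat3 was 4190 in the Flox/Flox pool and 2933 in the L-Lpcat3 KO pool (log2 ratio -0.51), the feedback inhibitor Socs3 was 398 and 282 (-0.50), and the kinase Jak2 was 760 and 770 (0.02). Dimmer probe sets of Socs3 were at 0.17 and -0.15, and that of Jak2 at -0.36. The other measured probe sets of Stat3 ran from -0.31 to 1.01. Leprot, which shares its first exons with Lepr, was 899 and 754 (-0.25), with its other probe sets at 0.12 and -0.19, and leptin itself was below the floor. Kupffer cell markers were also lower, with all 12 ratios below 0, a median of -0.28 and summed signals of 13406 and 11596. Of 10 endothelial markers, 6 had ratios above 0 (median 0.22, summed signals 8350 and 9505). Over all measured genes, 50.8% had ratios above 0. In whole liver, fewer cells of a type and less RNA per cell cannot be told apart, and the part of these cells in the leptin and FGF receptor values was not tested. Hepatocyte markers lay between -0.11 and 0.08 with a median of -0.02. All 11 matched ones were above the floor, and 9 of them had ratios below 0. Of 8 measured stellate cell markers 6 had ratios above 0, and Col3a1 was 1.53-fold lower (1758 and 1151). Markers of cholangiocytes, neutrophils and lymphocytes were mostly at or near the floor, with 3, 5 and 2 measured, and differed both ways. Sox9 (162 and 77.6) and Mpo (124 and 80.1) were past 1.5-fold lower, and Epcam (58.4 and 128) and Csf3r (29.7 and 120) past 1.5-fold higher with the control pool at the floor.

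**Figure D3:**
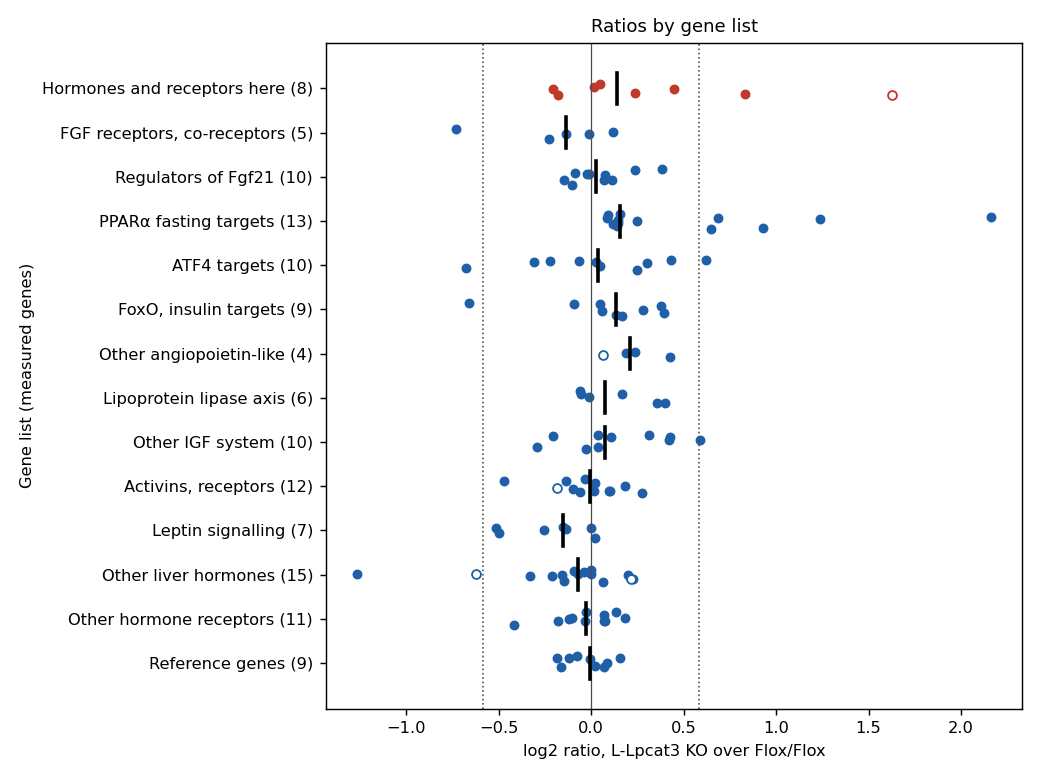
Log2 ratio between the pools, L-Lpcat3 KO minus Flox/Flox (x axis), for the measured genes of each list (y axis, number in parentheses), 1 point per gene by its brightest probe set; open points have 1 pool at the floor, black bars are medians and dotted lines mark 1.5-fold. The 8 hormone and receptor genes (red) run from -0.21 for Igfbp2 to 1.63 for Fgf21 with a median of 0.14, PPARα fasting targets lie above 0 with a median of 0.15, and the leptin receptor list has a median of -0.15.

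Other liver hormones and hormone receptors completed the comparison. Of 15 measured hormones, 5 had ratios above 0, none was 1.5-fold higher and 2 were 1.5-fold lower, with a median of -0.07. Among all measured genes, 50.8% had ratios above 0, 4.05% were higher and 3.17% lower by that size. Enho encodes adropin, a peptide linked to energy balance. By its brightest probe set it was 1286 in the Flox/Flox pool and 535 in the L-Lpcat3 KO pool (2.40-fold lower). A second bright Enho probe set was lower too (956 and 650, log2 ratio -0.56), and a dim one nearer the floor was higher (84.5 and 115, 0.44). Adm, adrenomedullin, was 118 and 74.0, at least 1.54-fold lower with the knockout pool at the floor, and its other probe set was at 0.27. The brightest, the iron hormone Hamp, was 42045 and 39964 (log2 ratio -0.07), and the highest, Gdf2, which encodes BMP9, was 569 and 665 (0.23). Of 11 other hormone receptors, none was 1.5-fold apart by its brightest probe set and the median was -0.03. A dimmer probe set of the insulin receptor Insr was lower, 181 in the Flox/Flox pool and 83.9 in the L-Lpcat3 KO pool (-1.11). The growth hormone receptor Ghr was 22983 and 22566 (-0.03), the glucagon receptor Gcgr 5709 and 5979 (0.07), the somatostatin receptor Sstr2 157 and 178 (0.18), and the vasopressin receptor Avpr1a 407 and 304 (-0.42), with its other probe set at 0.36. Ret, the signalling partner of the GDF15 receptor, was at or near the floor (58.7 and 77.9). Reference genes had a median of -0.01, between -0.18 for B2m and 0.16 for Tbp.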

How the data were processed

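Liver RNA of 5 mice per genotype was pooled and hybridized to 1 array. The deposited values are signal intensities per probe set, MAS5 signals per the submitters' processing notes, and the methods name GeneSpring GX for analysis. The software version and the genome build are not given in the sources used here. Arrays have no read depth, and 1 array per genotype limits the precision. Both columns had the same mean once the lowest and highest 2% of signals were left out.

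Names of probe sets came from the platform annotation, brought up to date through Entrez IDs with a RefSeq table (34945 of 45101 probe sets with 1 symbol). Signals were used as deposited, signals under the median were raised to it, and log2 was taken. The value of a gene was that of its brightest probe set by mean signal. A gene or probe set was measured when at least 1 pool exceeded the floor. No test was run, and sizes of 1.5-fold and 2-fold were counted. The named genes were all 9 members, Lpcat3, and from each list other than the cell markers the highest and lowest gene above the floor in both pools, the brightest, and any 1.5-fold apart. Ppara, Atf4, G6pc, Igf1, Insr, the named cell markers and other genes named beside them were added after their values were seen. Scalings, floors and gene summaries were varied as alternatives. The members and lists were chosen with earlier results of these data known. Promoters came from the RefSeq table for 8 of 9 genes. Scripts were tested on simulated data. Python 3.11.15 was used with statsmodels 0.14.6 for loess, pandas 2.3.3 and numpy 2.4.6 for tables, and matplotlib 3.10.9 for figures.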

Additional observations from a re-analysis of the deposited data

How the results depend on the processing

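With 1 pool per genotype, no replicate could be left out. No paired analysis was possible because each genotype has 1 sample and the labels give no replicate numbers. The scaling was replaced by median centring, by quantile normalization and by loess. The floor was moved to the 25th percentile, the 75th percentile or the level that 90% of signals of other tissues stay under, was dropped, or gave way to a pseudocount of 50. Genes were also taken as the mean over probe sets, and without the types _s_at and _x_at. Counts of members at least 1.5-fold lower were 0 throughout. Of probe sets at least 1.5-fold higher, 2 as reported, there were 0 with the floor at the 75th percentile, which raises both pools of Fgf21 and Lepr to the floor, and 5 with no floor, which adds 1 dim probe set each of Klb, Fgfr4 and Lepr. Of genes at least 1.5-fold higher, 2 as reported, 0 were left at the 75th percentile and 1 with the mean over probe sets. Where a value could be had, the log2 ratio of Fgf21 ran from 1.43 to 2.15, and was 1.60 with loess and 1.59 with median centring. The ratios of Klb, Igfbp1, Igfbp2, Inhbe and Lepr by gene kept their sign under all alternatives that gave a value, whereas those of Angptl4 and Fgfr4, near 0, turned in 3 and 2 of 10. No member ratio at least 1.5-fold apart turned. Median centring moved the median of all measured probe sets from 0.00 to -0.07. Signals near background limit Fgf21 and Lepr, and neither has a check in other mice here.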
